A study of Mus musculus with 18 samples.

Results

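The comparison described here asks whether the Brca1 knockout changed a transcript by the same amount in the cortex and in a second set of brain samples titled rest. It covers 11959 probe sets of the 22626 that the cortex A chip shares with the rest array, out of 45037 in the series. A probe set was taken when it had a signal on at least 2 arrays of each genotype in both tables. Of the other shared probe sets, 106 were listed often enough only in cortex, 1983 only in rest and 8578 in neither. Of those taken, 10886 had a signal on all 12 arrays, and 11068 belonged to exactly 1 gene, for 7222 genes. For each probe set the knockout-minus-wild-type change in cortex was subtracted from the same change in rest, both as log2 signal. A difference below 0 therefore marks a transcript whose change was lower in rest than in cortex, whichever way each change went.

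All animals were mice at postnatal day 7. The knockout animals had Cre driven by nestin, a promoter of neural progenitors, 1 Brca1 allele floxed around exons 5 to 13, and 1 null allele with a neo cassette inverted in exon 11. The labels call the comparison animals wildtype and do not give their Brca1 or Cre alleles, nor the strain. There were 4 groups of 3 arrays: wild-type cortex, knockout cortex, wild-type rest and knockout rest, each hybridised with total RNA. The source of the rest samples is given only as P7 brain. Nestin Cre acts mainly in neural progenitors and the neurons and glia they form, so it does not cover every cell of the tissue, whereas the null allele is carried by all cells. The labels do not say whether arrays of a group came from separate animals, so the tests measure the spread between these arrays. They also do not say whether a replicate number marks the same animal in both tables.

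Markers of brain regions were read first, as a check of the labels. In wild-type cortex 4 of 5 cortical markers on the array had a signal on all 3 arrays, against 2 of 5 in wild-type rest. Of 13 markers of tissue outside the cortex, 3 were listed on all 3 wild-type cortex arrays and 8 on none, while in rest 7 were listed on all 3 and 5 on none. En1, of the midbrain and hindbrain, and Th, of catecholamine neurons, were among those listed on all wild-type rest arrays and on no cortex array. The knockout rest arrays were not alike in this. Of the 5 markers on no wild-type rest array, Hoxb3, Hoxb5 and Slc6a5 were each listed on 2 knockout rest arrays, and Hoxb2 and Hoxb4 on none. En1 was listed on 2 knockout rest arrays. What lies behind these differences by genotype was not tested. The actin 3' to 5' ratio, a measure of RNA integrity, was 1.37 to 1.51 in cortex. In rest it was 1.96 on knockout replicate 3 and 1.64 to 1.73 on the others. The Y-linked Eif2s3y was listed only on knockout replicates 1 and 2, in both tables, so genotype is partly joined with sex in each of them. The Brca1 change itself did not differ detectably between the tables. Brca1 probe set 1424629_at had a difference of -0.23 (95% interval -0.72 to 0.27, limma adjusted p = 0.778), and the exons it reads are not given. Its changes were 0.25 (SE 0.16) in cortex and 0.03 (SE 0.16) in rest, so neither was below 0. Its cortex signal was dim, at 36.9 to 48.9 in wild type and 44.0 to 61.4 in knockout. The other Brca1 probe sets were blank on most arrays and were not tested.

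BRCA1 repairs DNA double-strand breaks by homologous recombination and protects replication forks, and its loss is felt most by dividing progenitors. In the first week after birth the neurons of the cortex have largely been born, while oligodendrocyte precursors, astrocytes and cerebellar granule cell precursors still divide. Myelination begins in the hindbrain and spinal cord and reaches the cortex later. Myelin is made by oligodendrocytes, the meninges are sheets of fibroblasts over the brain surface, and cortical interneurons migrate in from the ventral forebrain. In bulk tissue, fewer cells of a type and less RNA per cell cannot be told apart.

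A knockout change that differed between rest and cortex was called for 6 probe sets, at a limma adjusted p under 0.05 (0.0502% of those tested). The change was lower in rest for 5 of them (0.0418%) and higher in 1 (0.00836%). The 5 were Lpar1, Gsn with 2 probe sets, Malat1 and Lgals1, and the other was Tmtc4. In 5 of the 6 the cortex and rest changes had opposite signs, but not all of these were clear reversals. For Tmtc4 the rest change was 0.02 (SE 0.09). For Gsn the cortex changes were 0.29 (SE 0.15) at 1437171_x_at and 0.16 (SE 0.12) at 1436991_x_at. Lpar1 is a receptor for lysophosphatidic acid found on oligodendrocytes, Gsn encodes the actin-severing protein gelsolin, which is abundant in oligodendrocytes, and Lgals1 encodes galectin-1, a carbohydrate-binding protein of fibroblasts, vessels and reactive glia. Malat1 is a long noncoding RNA of the nucleus, and Tmtc4 encodes a membrane protein of the endoplasmic reticulum. At an unadjusted p under 0.05 there were 1257 probe sets (10.5%), 687 lower in rest (5.74%) and 570 higher (4.77%).

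Across all 11959 probe sets the median difference was 0.01 and the quartiles were -0.15 and 0.14. The lowest difference was -2.22 and the highest 1.44, with a median standard error of 0.17. There were 49 probe sets beyond 1 on the log2 scale, of which 46 were lower in rest and 3 higher, and 4 of the 49 were called. The cortex and rest changes had a correlation of 0.37 across probe sets. The probe sets are not independent and share arrays within each table, and the value is given as a description.

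**Figure D1:**
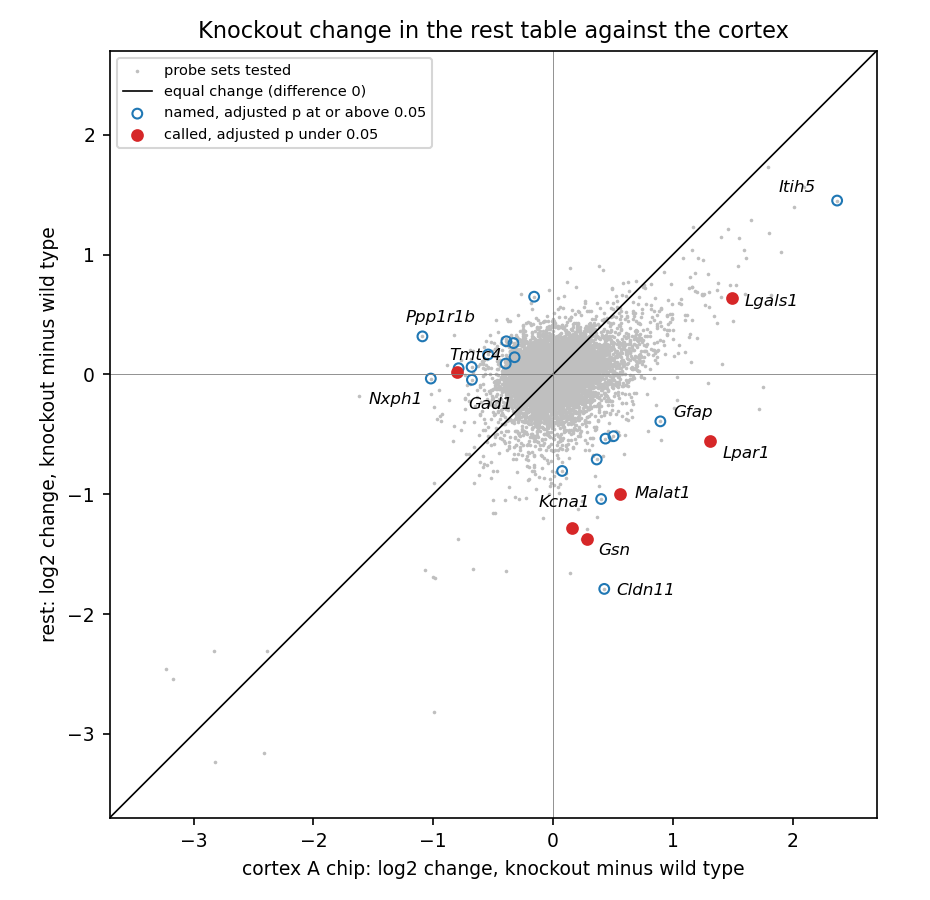
Each point is a probe set, with its log2 knockout-minus-wild-type change in cortex on the x axis and in rest on the y axis; the diagonal marks equal change. The called probe sets (red) lie off the diagonal, with Lpar1 at 1.31 in cortex and -0.56 in rest, and blue circles are the other leading genes, which were not called.

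The promoters of Lpar1 and Gsn are shown because these 2 genes gave the differences with the lowest adjusted p and both are read by several probe sets. They are RefSeq sequences on GRCm38.p6, from 250 bases before to 50 bases after an annotated start, written 5′ to 3′ on the strand of the gene. The table holds 3 starts for each gene. Capitals mark matches to ACAANG, a core that SOX factors recognise, SOX10 of oligodendrocytes among them, searched on both strands and so also as CNTTGT. The first Lpar1 start overlaps the second and held no match, and it is not shown.
Lpar1, start 2, chr4:58553244-58553543, minus strand: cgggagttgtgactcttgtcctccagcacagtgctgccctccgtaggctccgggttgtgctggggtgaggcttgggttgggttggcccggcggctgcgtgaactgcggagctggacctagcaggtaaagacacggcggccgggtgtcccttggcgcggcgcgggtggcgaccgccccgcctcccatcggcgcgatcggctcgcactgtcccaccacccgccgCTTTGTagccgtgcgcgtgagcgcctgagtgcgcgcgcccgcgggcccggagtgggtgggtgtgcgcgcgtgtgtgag
Lpar1, start 3, chr4:58499354-58499653, minus strand: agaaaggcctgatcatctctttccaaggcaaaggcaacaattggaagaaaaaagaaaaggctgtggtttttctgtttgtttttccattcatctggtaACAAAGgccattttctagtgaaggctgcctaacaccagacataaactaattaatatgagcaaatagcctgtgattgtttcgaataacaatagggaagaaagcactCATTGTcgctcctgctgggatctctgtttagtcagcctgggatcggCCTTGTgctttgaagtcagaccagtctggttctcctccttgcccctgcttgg
Gsn, start 1, chr2:35256109-35256408, plus strand: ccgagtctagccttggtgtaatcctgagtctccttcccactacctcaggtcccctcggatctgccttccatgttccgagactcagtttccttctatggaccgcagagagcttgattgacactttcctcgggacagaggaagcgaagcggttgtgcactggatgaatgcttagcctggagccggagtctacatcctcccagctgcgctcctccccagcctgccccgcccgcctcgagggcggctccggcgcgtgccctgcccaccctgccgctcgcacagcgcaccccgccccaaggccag
The second Lpar1 start held 1 match and the third held 3, whereas none of the 3 Gsn windows held any. Of 32851 promoters of the same length, 41.2% held at least 1 match and 2.25% held 3 or more. These are matches of letters and not known binding sites.

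Lpar1 had the lowest p of all probe sets. Its probe set 1448606_at read 100.9, 82.4 and 91.5 in wild-type cortex and 279.8, 273.1 and 204.4 in knockout cortex. The rest values were 389.1, 353.8 and 323.1 in wild type and 216.6, 200.7 and 299.2 in knockout. Every knockout array lay above every wild-type array in cortex and below every one in rest. The change was 1.31 in cortex and -0.56 in rest, a difference of -1.87 (SE 0.22, 95% interval -2.33 to -1.40, limma adjusted p = 0.0051). The remaining Lpar1 probe set tested, 1417143_at, had a difference of -1.29 (limma adjusted p = 0.142) and was not called.

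Gsn was well below wild type in knockout rest, while its change in cortex was small and not clearly apart from 0. Probe set 1437171_x_at read 79.9, 74.4 and 87.7 in wild-type cortex against 109.2, 106.6 and 90.4 in knockout cortex. Wild-type rest read 365.8, 308.1 and 371.5 against 120.7, 100.1 and 160.0 in knockout rest. The rest groups were far apart, and the highest knockout array was replicate 3. The changes of 0.29 and -1.37 gave a difference of -1.65 (SE 0.21, 95% interval -2.11 to -1.20, limma adjusted p = 0.00709). Probe set 1436991_x_at had a difference of -1.44 (SE 0.17, limma adjusted p = 0.0051). The other 2 Gsn probe sets tested, 1415812_at and 1456312_x_at, had differences of -1.79 and -1.56 with limma adjusted p of 0.079 and 0.177.

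Lgals1 was higher in knockout in both tables, and by less in rest. Probe set 1455439_a_at read 247.3, 243.5 and 293.5 in wild-type cortex and 781.4, 766.8 and 728.9 in knockout cortex. In rest it read 656.5, 571.8 and 668.9 in wild type and 1066.7, 902.0 and 1006.3 in knockout. The genotypes did not overlap in either table. The changes of 1.49 and 0.64 gave a difference of -0.85 (SE 0.13, 95% interval -1.13 to -0.57, limma adjusted p = 0.035). The second Lgals1 probe set, 1419573_a_at, had a difference of -0.73 (limma adjusted p = 0.107). Lgals1 and Lpar1 are also transcribed in meningeal fibroblasts. The summed signal of 29 genes of such cells was 7108.1 to 7875.3 in wild-type and 17367.7 to 19004.1 in knockout cortex, and 11893.9 to 19144.9 and 22822.9 to 25685.4 in rest. Its part in these differences was not tested.

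The probe sets of Malat1 differed from each other in the size of the difference and in the direction of their changes. Probe set 1438403_s_at read 739.2, 551.4 and 750.3 in wild-type cortex and 1218.2, 768.0 and 1067.6 in knockout cortex. Rest arrays read 353.7, 358.4 and 340.6 in wild type and 128.1, 198.5 and 182.4 in knockout. Knockout was above wild type in cortex and below it in rest, with no overlap. The difference was -1.56 (SE 0.25, limma adjusted p = 0.035). The Malat1 probe sets 1418188_a_at and 1418189_s_at had differences of -0.53 and -0.79, with limma adjusted p of 0.488 and 0.39. Read on the cortex B chip and set against rest in the same way, 1429060_at had a difference of -0.00044 and 1436202_at one of -0.32. For 1429060_at the changes were -0.475 in cortex and -0.475 in rest, and for 1436202_at 0.744 and 0.426. Neither went up in cortex and down in rest as 1438403_s_at did (0.56 and -1.0).

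Tmtc4 was the called gene whose change was higher in rest. It read 591.0, 645.8 and 507.0 in wild-type cortex and 350.0, 321.9 and 307.2 in knockout cortex. Its rest values were 625.0, 591.5 and 613.1 in wild type and 640.0, 593.2 and 621.8 in knockout. The genotypes were apart in cortex and overlapped in rest. The difference was 0.82 (SE 0.13, 95% interval 0.54 to 1.09, limma adjusted p = 0.035), and its second probe set, 1432360_a_at, gave 0.96 (limma adjusted p = 0.177).

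The calls of Lpar1 and both Gsn probe sets held when any single array was left out, with differences of -2.03 to -1.76 for Lpar1 and -1.81 to -1.51 for Gsn 1437171_x_at. Of 29 fits that tested them, these calls were lost in 1, that with a term for the sex-marker pattern, in which the knockout is represented by replicate 3 alone. Its genotype effect rests on 1 knockout array per table, so only effect sizes are given. Lpar1 was then at -1.27 and Gsn 1437171_x_at at -1.19. Malat1 was called in 14 of 29 fits, Lgals1 in 16 of 30 and Tmtc4 in 14 of 30. Among the fits that left out 1 array, the Malat1 call was lost without any 1 wild-type array of either table, cortex knockout replicate 1 or 3, or rest knockout replicate 1, with differences of -1.75 to -1.39. The Lgals1 call was lost without wild-type replicate 1 or 2 or any knockout replicate in cortex, or without wild-type replicate 1 or 3 or knockout replicate 1 or 2 in rest, at -0.93 to -0.79. The Tmtc4 call was lost without any single array except wild-type replicate 3 of cortex and knockout replicate 3 of rest, at 0.74 to 0.91.

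**Figure D2:**
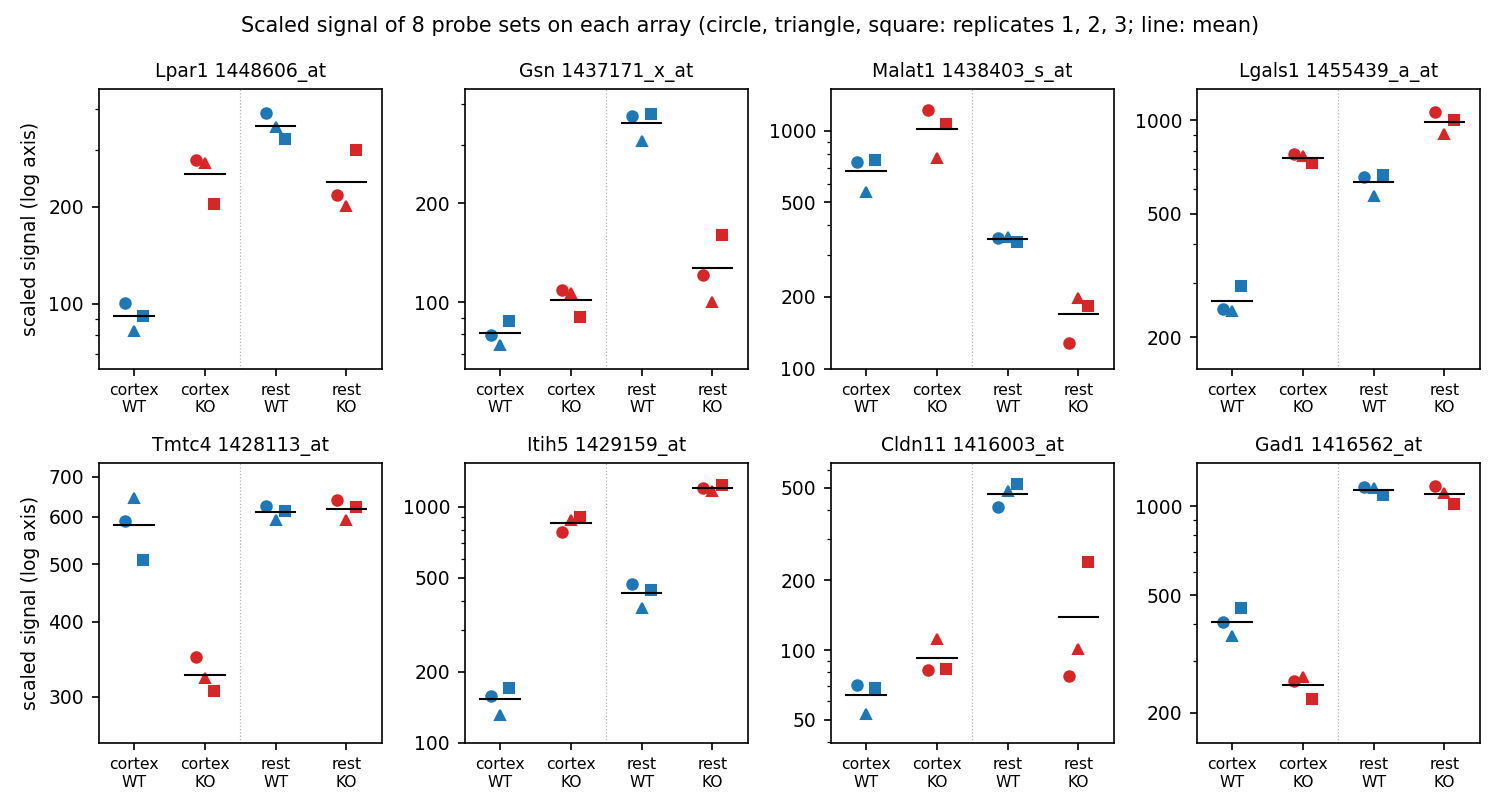
Scaled signal of 8 probe sets on each of the 12 arrays, on a log axis, by table and genotype (blue wild type, WT; red knockout, KO), with symbols for the replicate number and a line at the mean. Lpar1 and Malat1 knockout arrays lie above wild type in cortex and below it in rest, those of Tmtc4 and Gad1 are apart by genotype in cortex and overlap in rest, and rest knockout replicate 3 is the highest knockout square for Cldn11 at 238.7.

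The next genes in order of p were not called, and their values are given as such. Lower in rest were Itih5, an extracellular protein of fibroblasts (-0.91, limma adjusted p = 0.0502), and Cldn11, the tight-junction claudin of myelin (-2.22, 95% interval -3.04 to -1.39, limma adjusted p = 0.0678). Itih5 read 158.4, 130.7 and 170.8 in wild-type and 780.6, 881.9 and 902.0 in knockout cortex. Wild-type rest read 472.0, 373.4 and 442.4, and knockout rest 1198.6, 1158.8 and 1239.9. It was well above wild type in both tables, by 2.37 in cortex and 1.45 in rest. It was called in 13 of 30 fits, among them the one without cortex wild-type replicate 3 and those without rest wild-type replicate 2 or rest knockout replicate 3, at -1.01 to -0.81 over the fits that left out 1 array.

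Cldn11 read 70.9, 52.9 and 68.8 in wild-type and 82.2, 111.6 and 82.4 in knockout cortex. In rest it read 414.1, 484.1 and 518.0 in wild type and 77.5, 100.9 and 238.7 in knockout. Replicate 3 was the highest of the knockout rest arrays, and without it Cldn11 was called at -2.64 (limma adjusted p = 0.000193). In that fit every knockout rest array listed the Y-linked transcript and no wild-type rest array did. Genotype and the sex marker cannot be told apart there.

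The remaining leading genes with a lower change in rest had limma adjusted p from 0.079 to 0.107. Ccnd2, the D-type cyclin of neural and glial progenitors, had a difference of -1.02, and its other 5 probe sets lay between -0.83 and -0.16. Gfap, the intermediate filament of astrocytes, had -1.29, with -1.0 at a second A chip probe set and -0.77 at one of the B chip. It read 401.5 to 540.0 in wild-type and 665.7 to 1004.8 in knockout cortex, and 1026.9 to 1389.2 and 735.0 to 1033.4 in rest, where the genotypes overlapped. Kcna1, a voltage-gated potassium channel of axons, had -1.44, and its B chip probe sets had -0.81 and -0.53. Secisbp2l, which binds selenocysteine insertion elements, had -0.88 and -1.30 at its 2 probe sets. Cemip2, a membrane protein of hyaluronan turnover, had -1.07 and -0.42. For Syt11, a synaptotagmin, the leading probe set 1456464_x_at had -0.97 while the other A chip probe sets 1449264_at and 1455176_a_at had 0.03 and 0.02, and those of the B chip -0.17 and -0.28. Among the fits that left out 1 array, several became calls: Ccnd2 (-1.08), Gfap (-1.37) and Cemip2 (-1.20) without rest knockout replicate 3, Ccnd2 (-1.16) without cortex wild-type replicate 1, Syt11 (-1.11) without cortex wild-type replicate 2 and Kcna1 (-1.63) without rest wild-type replicate 3.

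Higher in rest but not called were mainly genes whose cortex change was below 0 and whose rest change lay nearer 0. Ppp1r1b, which encodes the striatal phosphoprotein DARPP-32, had the largest difference of the 12 leading genes on this side, 1.40 (limma adjusted p = 0.0795). It was blank on wild-type replicate 2 in cortex and knockout replicate 2 in rest, so it rests on 10 arrays, and with blanks at the lowest listed signal the sign turned, to -0.90. Nxph1, a neurexin ligand of interneurons, had 0.99 (limma adjusted p = 0.0795), reading 211.5 to 270.2 in wild-type and 94.5 to 128.0 in knockout cortex. In rest it read 569.0 to 736.2 and 576.4 to 666.0, and the genotypes overlapped. Gad1, which makes GABA, had 0.63 (limma adjusted p = 0.107), reading 363.0 to 452.0 and 223.7 to 265.4 in cortex and 1090.3 to 1161.3 and 1022.2 to 1171.1 in rest. The second Gad1 probe set, 1416561_at, gave 0.57, and Nxph1 1436718_at of the B chip 0.36 (SE 0.28). Kcnip1, a potassium channel partner (0.71, and 0.42 at 1448459_at), St8sia2, which adds polysialic acid in migrating neurons (0.84), Tmem35a, a chaperone of acetylcholine receptors (0.74), and Stmn4, a neuronal stathmin (0.49), had limma adjusted p from 0.0678 to 0.112. Dlat, a subunit of pyruvate dehydrogenase, had 0.59, and 0.16 and -0.02 at its probe sets 1426265_x_at and 1452005_at. Bysl, a ribosome assembly factor, had 0.67, and 0.35 at 1450742_at. Tmem191c had 0.46, and 0.12 at 1420191_s_at, and Fuom, a fucose mutarotase, had 0.81. Fuom differed from the others in that its rest change, 0.65, lay further from 0 than its cortex change, -0.16.

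**Figure D3:**
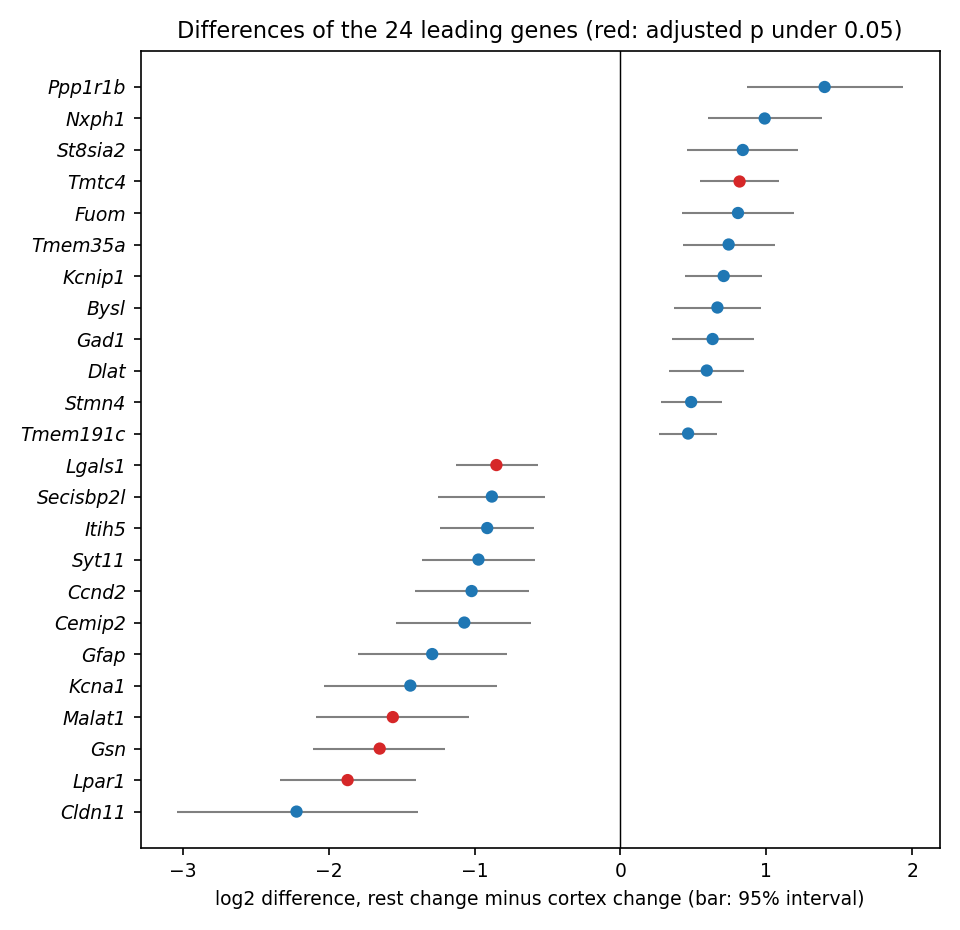
Log2 difference (rest change minus cortex change) of the 24 leading genes on the x axis, with 95% intervals of the limma fit as bars; red points were called and blue were not. Lower differences run from -2.22 for Cldn11 to -0.85 for Lgals1, higher ones from 0.46 for Tmem191c to 1.40 for Ppp1r1b.

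Gene lists were then read with 1 probe set per gene, the brightest, over 7221 genes. Of these, 3 were called lower in rest (0.0415%) and 1 higher (0.0138%), and at an unadjusted limma p under 0.05 there were 422 lower (5.84%) and 353 higher (4.89%). The median over all genes was 0.02, and 46.8% lay below 0. The lists are described against these shares and carry no test of their own.

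Myelin and oligodendrocyte genes had the lowest list median among those with more than 5 genes tested, -0.67, with changes of -0.40 in cortex and -1.05 in rest. Of 22 on the array, 11 were tested, 9 lay below 0, Lpar1 was called, and 7 were lower at an unadjusted p against 0 higher. Cldn11, Lpar1 and Gsn are given above. Further members named here were chosen after their values were seen. Ugt8a, which makes the galactolipids of myelin and was blank on cortex knockout replicate 1, had -1.83 (limma adjusted p = 0.373), and Cnp, an enzyme of the myelin cytoplasm, -1.25 (limma adjusted p = 0.254). Mbp, the major myelin basic protein, went the other way at 0.63, with an interval from -1.55 to 2.82. It read 1461.1 to 1909.6 in wild-type and 117.3 to 314.3 in knockout cortex, and 6031.5 to 6808.5 in wild-type rest. In knockout rest it read 200.4, 1476.6 and 4428.5, a spread wider than that of any other group.

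The rest knockout arrays differed from each other in the summed signal of the myelin list. The sum of its 11 genes was 17704.0, 17320.1 and 17034.9 in wild-type rest and 3476.7, 5321.7 and 11069.6 in knockout replicates 1, 2 and 3. In cortex it was 4634.6, 3861.2 and 4543.4 in wild type and 2205.1, 2703.8 and 2488.2 in knockout, with replicate 3 inside the knockout range. Bright genes such as Mbp and Cnp weigh most in this sum, and Cnp read 826.2, 1061.3 and 2470.1 in knockout rest. Without rest knockout replicate 3, 27 probe sets were called, 25 lower in rest and 2 higher, and they included all 6 of the full fit. Among the 25 were 9 probe sets of 6 myelin list genes, Cnp (-1.71, limma adjusted p = 0.00141) and Ugt8a (-2.56, limma adjusted p = 0.0244) with them, and Mbp turned to -0.36. The list median was then -0.79. Counts without 1 of the other arrays were 3 to 7: 3 without cortex knockout replicate 1 or 3, rest wild-type replicate 1 or rest knockout replicate 1, and 4 without cortex wild-type replicate 1, cortex knockout replicate 2 or rest knockout replicate 2. Rest knockout replicate 3 also had the highest actin ratio, 1.96. Its summed choroid plexus signal was the lowest in rest, 2227.4 (Ttr 1885.9) against 6676.2 to 9323.3. That array was the rest knockout array without the Y-linked transcript. The fit without it therefore cannot tell genotype from the sex marker in rest. The part of these measures was not tested.

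Oligodendrocyte precursor genes lay nearer the median of all genes. Of 14 tested, 7 lay below 0 and the median was -0.02. Olig2, a transcription factor of the lineage, was the only member with an unadjusted p under 0.05. It read 91.1 to 144.3 in wild-type and 64.3 to 107.0 in knockout cortex, which overlapped, and 620.2 to 655.6 and 278.3 to 329.5 in rest, which did not. Its difference was -0.65 (limma adjusted p = 0.325), so that it was not called. The precursor receptor Pdgfra had -0.25 and the transcription factor Sox6 -0.26.

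**Figure D4:**
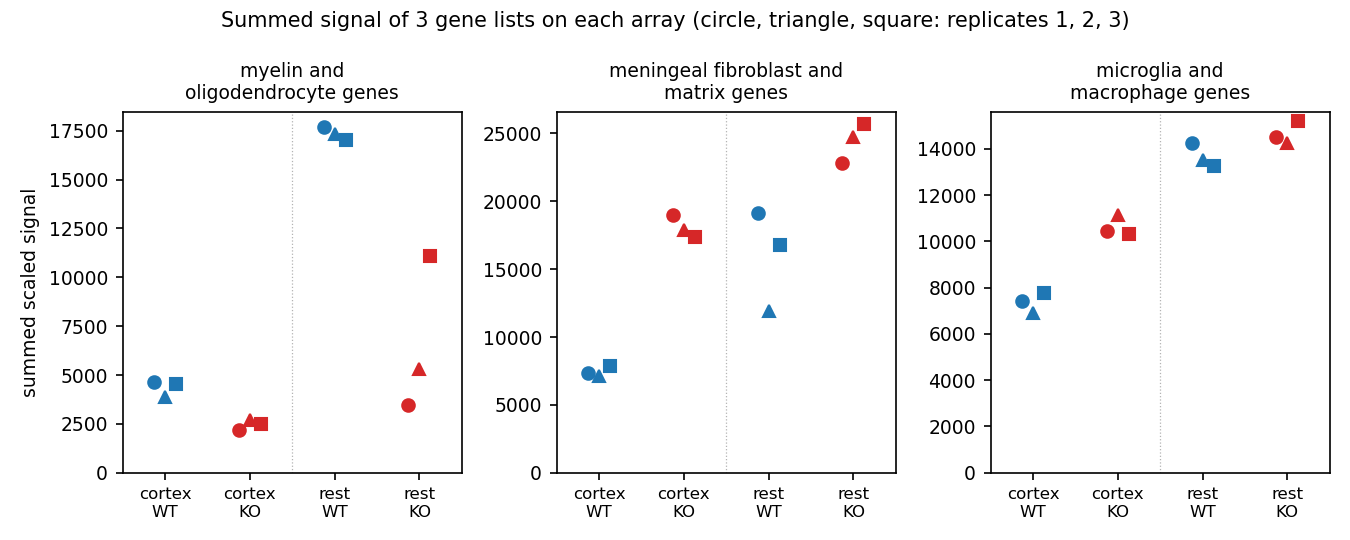
Summed scaled signal of the tested members of 3 lists on each array, by table and genotype, with symbols for the replicate number. Rest knockout replicate 3 reads 11069.6 for myelin genes against 3476.7 and 5321.7 on the other knockout arrays; for the meningeal list knockout arrays lie above wild type in both tables, and levels are not compared between tables.

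Meningeal fibroblast and matrix genes had a change above 0 in both tables, with a lower one in rest. Of 38 on the array, 29 were tested and 28 of these (96.6%) had a difference below 0, with a median of -0.59 from changes of 1.14 in cortex and 0.59 in rest. None was called, and 15 were lower at an unadjusted p against 0 higher. Zic1, a transcription factor of meninges and also of cerebellar granule cells, had -0.92 (limma adjusted p = 0.2), and Col6a3, a collagen of fibroblasts, -0.65 (limma adjusted p = 0.205). Of the collagens chosen after their values were seen, Col1a1 had -1.16 (limma adjusted p = 0.458) and Col3a1 -0.60 (limma adjusted p = 0.388). Col3a1 read 400.2 to 494.0 in wild-type and 1648.5 to 1896.0 in knockout cortex, and 740.9 to 1442.2 and 2526.2 to 2826.8 in rest. The genotypes were apart in both tables, and the wild-type rest arrays varied most. Cxcl12, the chemokine of meningeal cells and a guide of migrating neurons, also chosen after its values were seen, had -0.36 (95% interval -0.88 to 0.16). How much meninges each dissection carried was not measured.

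Vascular genes lay on the same side. Endothelial genes had a median difference of -0.33, with 21 of 23 below 0 and 7 lower at an unadjusted p against 0 higher. Pltp, a phospholipid transfer protein, had -0.59, Esam, a junction protein, -0.51, and Ramp2, a receptor partner for adrenomedullin, -0.34, with limma adjusted p of 0.241, 0.257 and 0.258. Pericyte and smooth muscle genes had a median of -0.32 (7 of 8 below 0), with Vtn at -0.53, Rgs5 at -0.35 and the myosin light chain Myl9 at -0.31. Basement membrane genes had a median of -0.19 (9 of 13 below 0), with the nidogens Nid1 and Nid2 at -0.82 and -0.60 and the laminin chain Lamc1 at -0.53. None of these genes was called.

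Choroid plexus and ependymal genes rest on 5 genes of 16 on the array, with a median of -0.85. Lbp had -0.85 (limma adjusted p = 0.177), without the blank replicate 2 of wild-type cortex and knockout rest, and Folr1, a folate receptor, -1.36 (limma adjusted p = 0.485), without wild-type cortex replicate 2. Ttr, the thyroid hormone carrier that dominates choroid plexus RNA, had -1.10 (95% interval -2.44 to 0.23). It read 4598.3, 2016.7 and 5127.0 in wild-type and 5182.4 to 5746.1 in knockout cortex. In rest it read 6267.5 to 7628.9 in wild type and 8743.7, 7211.8 and 1885.9 in knockout. The low arrays were cortex wild-type replicate 2 and rest knockout replicate 3, and without the latter the list median was -0.46.

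Other tissues that a dissection could carry were read in the same way. No pituitary or pineal gene was tested, and 7 of the 14 on the array, the hormone gene Prl among them, were blank on all 12 arrays. Of the peripheral nerve, muscle and skin genes 3 of 19 were tested and 8 were blank throughout, Ckm of muscle among them. Acta1, skeletal muscle actin, had 0.65 (95% interval 0.17 to 1.12, limma adjusted p = 0.303), Pmp22, of peripheral myelin, -0.40 and Sparcl1, a matrix protein that astrocytes also make, -0.18. Of the blood cell genes 3 of 14 were tested and 6 were blank throughout. Pf4, of platelets and some macrophages, had -0.43 (limma adjusted p = 0.454), Car2, a carbonic anhydrase, 0.14 and Alas2, of haem synthesis in red cells, -0.04 (95% interval -0.97 to 0.89).

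Microglia and macrophage genes had a median difference of -0.27, from changes of 0.56 in cortex and 0.26 in rest. Of 22 tested, 20 lay below 0 and 6 were lower at an unadjusted p against 0 higher. Apoe, a lipid carrier of microglia and astrocytes, had the smallest p of the list, with a difference of -0.37 (SE 0.08, limma adjusted p = 0.111). It read 3560.2 to 3954.2 in wild-type and 4455.1 to 4718.7 in knockout cortex, and 8184.6 to 8539.7 and 7723.7 to 8179.0 in rest. Knockout was above wild type in cortex and just below it in rest. Ctss, a lysosomal protease of microglia blank on wild-type cortex replicate 3, had -0.85, and Mrc1, the mannose receptor of perivascular and meningeal macrophages, -0.90. Interferon and antigen presentation genes had a median of -0.14 over 8 genes, with Ifitm3 at -0.50, Ifitm2 at -0.37 and B2m at -0.63. Irf9, H2-K1 and Ifit2, named after their values were seen, lay above 0 at 0.27, 0.05 and 0.03. Of 20 on the array, 7 were blank throughout.

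Astrocyte genes had a median of -0.20, with 22 of 28 below 0 and 8 lower at an unadjusted p against 0 higher. Aqp4, the water channel of astrocyte endfeet, had -0.61 (limma adjusted p = 0.144), Gja1, a gap junction protein, -0.68 and Glul, glutamine synthetase, -0.52. Aqp4 read 1005.2 to 1157.7 in wild-type and 1422.6 to 1738.3 in knockout cortex, and 2993.1 to 3286.7 and 2562.7 to 3304.0 in rest. The genotypes were apart in cortex and overlapped in rest. Reactive astrocyte genes had a median of -0.39, 11 of 12 below 0, with Lgals1 called. Vim, an intermediate filament of astrocytes, progenitors and fibroblasts, had -0.57 (limma adjusted p = 0.23).

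Immediate early genes, which respond to activity and stress, had a median of -0.40, with 14 of 17 below 0 and 5 lower at an unadjusted p against 0 higher. Ccn2, a matrix protein that also marks subplate neurons, had -0.91 (limma adjusted p = 0.177). It read 120.2 to 175.5 in wild-type and 284.7 to 425.8 in knockout cortex, and 94.7 to 124.0 and 117.3 to 133.3 in rest. Klf4 had -0.68 and Jun -0.58, with limma adjusted p of 0.29 and 0.303. Heat shock and stress genes had a median of -0.06 with none past an unadjusted p of 0.05. Mt1, a metallothionein, had -0.30 (95% interval -0.66 to 0.06), whereas Atf4, a transcription factor of the stress response, had 0.20 and its target Asns, asparagine synthetase, 0.22.

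Genes of GABA neurons lay on both sides of 0. In the interneuron list 7 of 15 genes (46.7%) lay below 0, against 46.8% of all genes, with 6 higher in rest at an unadjusted p and 1 lower. Its median of 0.06 turned to -0.07 without rest knockout replicate 1. In the GABA and glycine synapse list 3 of 16 lay below 0, with 4 higher and 1 lower at an unadjusted p and a median of 0.17. The lists share Gad1, Gad2 and Slc32a1, so the counts overlap. Slc32a1, the vesicular GABA transporter, had 0.86 (limma adjusted p = 0.152). It read 250.6 to 382.4 in wild-type and 162.9 to 232.0 in knockout cortex, and 959.4 to 1081.1 and 1060.1 to 1250.1 in rest.

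Dlx1, Lhx6 and Gad2 were chosen after their values were seen. Dlx1, a homeobox gene of interneurons, had the highest difference of the interneuron list, 1.44 (95% interval 0.53 to 2.35, limma adjusted p = 0.23), and was blank on cortex knockout replicate 3. Lhx6, a LIM homeobox gene of the same lineage, had 0.72 (limma adjusted p = 0.398) and Gad2, the second GABA-making enzyme, 0.82 (limma adjusted p = 0.29). Nr2f2, a nuclear receptor of caudally derived interneurons that vessels also express, had -0.88 over 11 arrays (limma adjusted p = 0.177) and turned to 0.19 with blanks at the lowest listed signal. Without rest wild-type replicate 3 it was called, at -1.07 (limma adjusted p = 0.0469). The other 6 members below 0 lay between -0.26 and -0.02, and none had an unadjusted p under 0.05. Slc12a2, the chloride importer NKCC1, was the GABA list member below 0 with an unadjusted p under 0.05, at -0.60 (limma adjusted p = 0.177).

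**Figure D5:**
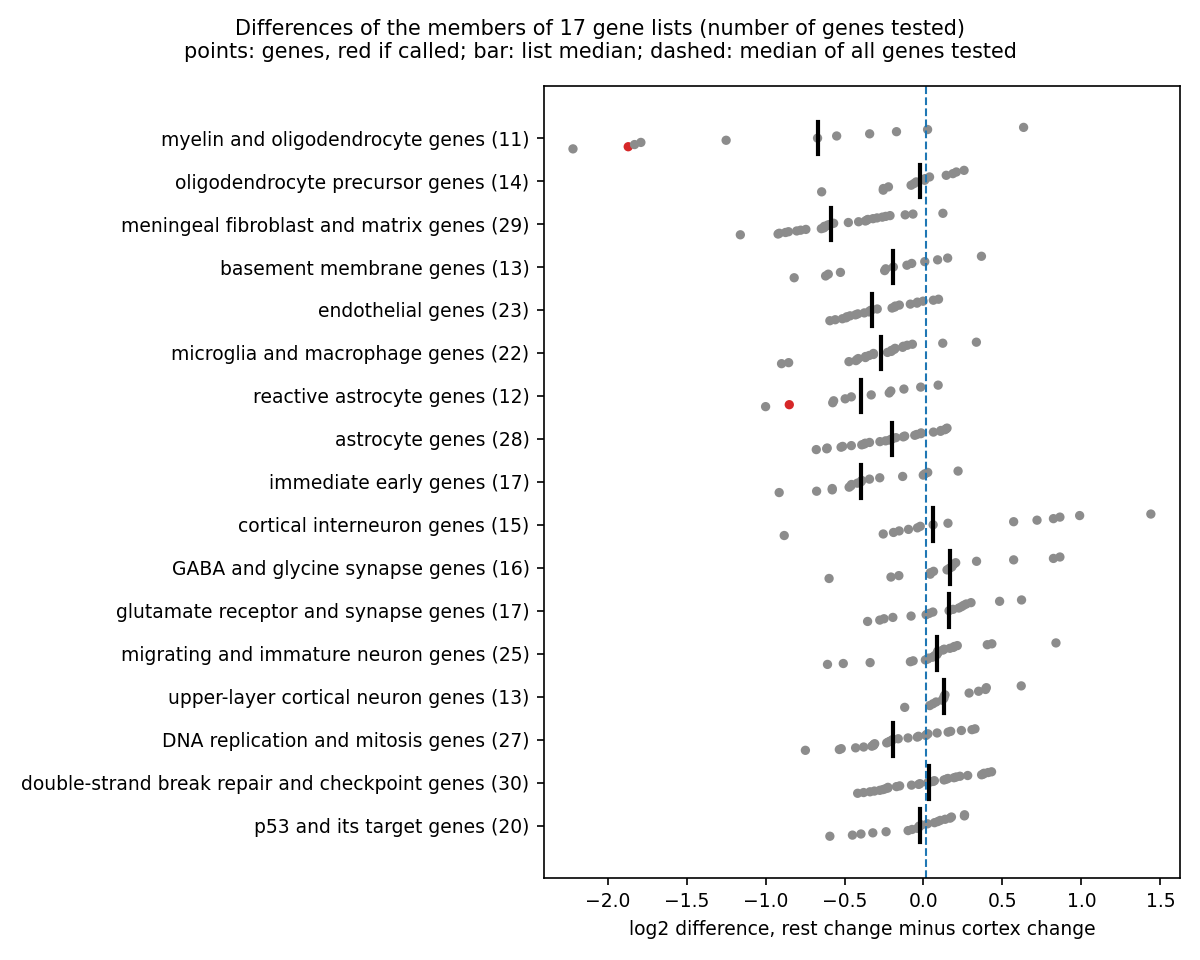
Log2 difference (rest change minus cortex change) of every tested member of 17 lists on the x axis, with the number tested beside each list; black bars are list medians and the dashed line is the median of all genes, 0.02. Myelin and meningeal medians lie at -0.67 and -0.59, interneuron genes run from -0.88 to 1.44, and called genes are red.

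Medians of the other neuronal lists lay between -0.25 and 0.17. Glutamate receptor and synapse genes had a median of 0.16 (5 of 17 below 0), with Cacng3, an AMPA receptor partner, at 0.62, Grik1, a kainate receptor, at 0.48 and Gria3, an AMPA receptor subunit, at 0.27. Upper-layer neuron genes had 0.13 (1 of 13 below 0), with Cux1 at 0.39, Pou3f1 at 0.40 and Lamp5 at 0.62. Deep-layer and subplate genes had -0.15, with Rprm at -0.49 and Zfpm2, a transcription cofactor, at -0.51, and turned to 0.03 without rest knockout replicate 3. Migrating and immature neuron genes had 0.09 over 25 genes, with the nuclear factors Nfix at -0.51 and Nfib at -0.61 against St8sia2 at 0.84. Striatal genes had 0.17 over 9 genes, with Pde1b at 0.40 and Rgs9, a regulator of G protein signalling, at 0.64, and -0.05 without cortex wild-type replicate 1. Presynaptic release genes had 0.05, with the complexin Cplx2 at -0.61, the calcium sensor Syt1 at 0.34 and the synapsin Syn1 at 0.23. Granule cell genes of the cerebellum had -0.25 over 9 genes, with the proliferation factor Mycn at 0.55 and Chn2 at -0.25. Thalamic and hypothalamic genes had 0.04, with the secretory granule gene Scg2 at -0.43 and the oxytocin gene Oxt, over 11 arrays, at 0.86. Pan-cortical excitatory genes had -0.12 over 10 genes, with the transcription regulators Id2 at -0.25, Bcl11a at -0.39 and Neurod1 at -0.58. Neurod1 is also in the granule cell list. Its 95% interval ran from -2.22 to 1.06, and wild-type rest read 617.1, 389.6 and 2242.4. Purkinje cell genes had -0.07 over 11, with Hopx at -0.30 and the postsynaptic scaffold Homer3, over 11 arrays, at -0.53. Gad1 1416561_at, also of this list and given above, went the other way at 0.57. Of 37 midbrain, hindbrain and spinal cord genes on the array, 1 was tested, the glutamate transporter Slc17a6, at -0.08 (95% interval -0.34 to 0.19). None of these genes was called.

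Lists tied to the known functions of BRCA1 came next. Double-strand break repair and checkpoint genes had a median of 0.03, with 14 of 30 below 0 and 3 lower at an unadjusted p against 0 higher. Rpa1, the large subunit of the protein that coats single-stranded DNA, had -0.31 (SE 0.09, limma adjusted p = 0.234). It read 602.8 to 634.7 in wild-type and 701.2 to 728.8 in knockout cortex, and 1004.8 to 1107.5 and 960.4 to 1041.2 in rest. Uimc1, the RAP80 partner of BRCA1, had -0.38 (limma adjusted p = 0.437), and Babam1, of the same BRCA1 complex, -0.23. The p53 and target genes had a median of -0.02 over 20 genes, with Ddit4 at -0.45 and Btg2, an antiproliferative gene, at -0.40. The caspase and Bcl2 family had -0.06, with Bcl2l11, which encodes BIM and was measured on 10 arrays, at -0.50, cytochrome c (Cycs) at 0.25 and the apoptosis inhibitor Birc2 at -0.43. Primary microcephaly and centrosome genes had -0.04, with Phc1 at 0.25, Ndel1, a dynein partner, at 0.26 and Copb2, of vesicle coats, at -0.19. DNA replication and mitosis genes had -0.20, with 18 of 27 below 0, the mitotic kinase Cdk1 at -0.75 over 11 arrays, Cdc20, of the anaphase-promoting complex, at -0.52 over 10, and Rrm1, of ribonucleotide reductase, at -0.32. The sign of that median turned to 0.18 with the sex-marker term. Neural progenitor genes had -0.15 (12 of 15 below 0), with Prom1 at -0.67, and G1 regulators -0.06, with the inhibitors Cdkn1c at -0.80 and Cdkn1b at -0.60 and the cyclin Ccnd3 at -0.52. None of the genes of these lists was called.

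Signalling lists held members on both sides of 0. Wnt, Bmp and Id genes had a median of -0.25, with 7 of 20 lower at an unadjusted p and 1 higher. Wnt5a, blank on wild-type cortex replicate 3, had -1.05 (limma adjusted p = 0.229) and the receptor Fzd7 -0.77 (limma adjusted p = 0.2), while Sfrp2, a secreted Wnt antagonist, had 0.68 (limma adjusted p = 0.157). Sfrp2 read 111.6 to 133.8 in wild-type and 70.9 to 85.0 in knockout cortex, and 328.1 to 364.8 and 328.9 to 417.0 in rest. Insulin-like growth factor genes had -0.21, with the binding proteins Igfbp2 at -0.32, Igfbp5 at -0.28 and Igfbp6 at -0.79. Hedgehog and Notch genes had -0.07, with 3 of 15 lower at an unadjusted p and 2 higher. The Hedgehog transducer Smo had -0.64 and the receptor Notch2 -0.51, while the Notch ligand Jag2 had 0.41 (limma adjusted p = 0.315) and Mycn, also of this list, 0.55. Among 6 retinoid genes, Crabp1, a retinoic acid binding protein measured on 10 arrays, had 0.84 and Aldh1a2, the meningeal enzyme that makes retinoic acid, -0.86, with the retinol carrier Rbp4 at 0.43. Sterol and fatty acid synthesis genes had -0.03, with the cholesterol carrier Stard4 at -0.57 (limma adjusted p = 0.142), the sterol isomerase Ebp at -0.30 and Mvk at 0.36. None of the genes of these lists was called.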

How the data were processed

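Per the submitters' processing notes, the authors made the deposited intensity values with MAS5. They are linear signals per probe set from 18 Affymetrix arrays, and no version or setting is given in the sources used here. Blank cells, whose reason is not stated, stayed missing.

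Within a table, each array was scaled to the same 2% trimmed mean over probe sets without a blank, controls excluded, and log2(signal + 16) was taken, which understates changes of dim probe sets. The 12 cortex A chip and rest arrays entered 1 limma fit (3.58.1, R 4.3.3; trended eBayes, no covariate). The contrast was rest change minus cortex change, with Benjamini-Hochberg adjustment over 11959 probe sets and a threshold of 0.05. The fit was tested on simulated data with independent noise on each array. That simulation held no pairing, sex difference or outlying array, so it does not speak to those. Array design and tissue differ together between the tables and cannot be told apart. The number of arrays limits the precision.

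Symbols came from the array annotation and RefSeq. Named genes are Brca1, the 12 leading genes each way (called, then lowest p) and up to 3 members a list by the same order. Members, the 41 lists and the tests were chosen with earlier results of these data known. The alternatives tried were scalings, offsets, filters, variance models, blocks, a sex-marker term and arrays left out.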

Additional observations from a re-analysis of the deposited data

Results flagged for a closer look

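For 6 probe sets the test of the difference itself set the rest change apart from the cortex change, in the joint limma fit. The differences were -1.87 for Lpar1 1448606_at, -1.65 for Gsn 1437171_x_at, -1.44 for Gsn 1436991_x_at, -1.56 for Malat1 1438403_s_at, -0.85 for Lgals1 1455439_a_at and 0.82 for Tmtc4 1428113_at. The limma adjusted p was 0.0051 for Lpar1 and 1436991_x_at, 0.00709 for 1437171_x_at and 0.035 for the others. With the mean of the probe sets of a gene in place of single probe sets, Gsn (-1.61) and Lpar1 (-1.58) were called, each at a limma adjusted p of 0.0313.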

How the results depend on the processing

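The count of 6 called probe sets became 3 with an offset of 64 and 3 without the variance trend, 11 with array weights, 16 at an adjusted p under 0.10, 32 with a separate fit per table and 74 with blanks at the lowest listed signal (37 each way of 22626 tested). Above the 60th percentile of mean level it was 0 of 4391 by limma, with 525 at an unadjusted p under 0.05. With the sex-marker term, where the genotype effect rests on 1 knockout array per table, all 6 calls were lost. Leaving out 1 array gave counts of 3 to 27, and leaving out both knockout replicate 3 arrays, chosen after seeing the data, gave 11. Every knockout array of the latter fit listed the Y-linked transcript, so genotype and the sex marker cannot be told apart in it. Other scalings, an offset of 1, probe sets on all 12 arrays and robust eBayes gave 6 or 7. The replicate block gave 9 with animal fixed (4 shared with the 6), where Malat1 and Tmtc4 were not called and Itih5, Ccnd2, Gfap and Syt11 were. It gave 8 with number fixed (5 shared), without Malat1 and with Itih5, Ccnd2 and Nxph1, and 7 with a random block (consensus correlation 0.0461), Itih5 added. The numbers were not taken as pairs, since same-number correlations of deviations ran from -0.0205 to 0.142 and not every one was over 0.1. Different-number correlations within a genotype ran from -0.208 to 0.173. The Y-linked pattern was the same by number in both tables, so the numbers may still mark animals. Signs turned for Ppp1r1b (-0.902) and Nr2f2 (0.192) with blanks at the lowest listed signal, and for Mbp without both knockout replicate 3 arrays (-0.459), with -0.355 to 1.82 over the fits that left out 1 array. Among other genes that were not called, signs turned with the sex-marker term for Alas2 (0.0609), Pdgfra (0.0779), Neurod1 (0.452), Hopx (0.0113), Homer3 (0.245), Pmp22 (0.0176) and Syn1 (-4e-05), with quantile normalization for Alas2 (0.00664) and with blanks at the lowest listed signal for Oxt (-0.0855). Over fits that left out 1 array, Alas2 ran from -0.364 to 0.239, Neurod1 from -1.1 to 0.137 and Slc17a6 from -0.173 to 0.002. The causes were not tested. Of 1199 list medians under other settings, 88 moved by more than 1 SD between arrays, and 21 of the 40 lists changed sign under at least 1 setting, all with medians between -0.20 and 0.18. The retinoid list had no gene above the 60th percentile. Signals near background were often blank, which limits dim genes.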
